A study of Mus musculus with 7 samples.

Results

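The Calb1 Necab1 Cbln1 cells are glutamatergic neurons, defined in single cells by raw transcript counts, in sections of wild-type mouse brain through the anterior thalamic nuclei. A cell was a member when it held at least 8 transcripts of Slc17a6, at least 4 of Calb1, at least 4 of Necab1 and at least 5 of Cbln1, with at most 1 of Bhlhe22, at most 2 of Pvalb and at most 2 of Gad1 and Gad2 together. This rule took 1629 of the 384076 cells in the series. Cells with at least 8 Slc17a6 transcripts and at most 2 of Gad1 and Gad2 together are called VGLUT2 cells here, and they numbered 18086, so members made up 9.01% of them (95% Wilson interval 8.60 to 9.43%). The other 16457 VGLUT2 cells served as the comparison. Transcripts of 297 genes were measured by Xenium, which reads out individual RNA molecules of a chosen set of genes by imaging and allots each one to an outlined cell. The 7 coronal hemisections were 10 µm thick. Of these, 2 were anterior, at bregma -0.58 mm. A further 2 were intermediate, between -0.70 and -0.82 mm, and 3 were posterior, at -0.94 mm. All came from wild-type (WT) brains, fresh frozen, with no treatment named. Replicates 1 and 2 lay on one slide and posterior replicates 3 and 4 on another. The labels do not say whether replicates are separate animals, so p-values measure the spread between sections, which may be technical.

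Slc17a6 encodes VGLUT2, the transporter that loads glutamate into synaptic vesicles in most thalamic relay neurons. The anterior thalamic nuclei (anterodorsal, anteroventral and anteromedial) receive input from the mammillary bodies and the hippocampal formation, project to cingulate and retrosplenial cortex, and are known for their part in memory and head direction signals. Calb1 (calbindin) is a calcium buffer of the EF-hand family, Necab1 is a neuronal EF-hand protein, and Cbln1 is a secreted synapse organiser that bridges presynaptic neurexins and postsynaptic delta-type glutamate receptors.

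Each of the 3 required genes was common among VGLUT2 cells, and members are the cells that carried all of them. The Calb1 minimum was met by 7267 VGLUT2 cells, the Necab1 minimum by 6439 and the Cbln1 minimum by 6239. Calb1 and Necab1 were met together in 4585 cells, of which 2892 lacked Cbln1, while 3112 cells met Cbln1 with neither Calb1 nor Necab1. All 3 minimums were met in 1693 cells, and the limits on Bhlhe22 and Pvalb removed few of these, leaving 1644 and then 1629. Among cells that met every other criterion, 1885 failed Cbln1, 1194 failed Necab1 and 174 failed Calb1. There is no gap at the limits. The 146 members with exactly 5 Cbln1 transcripts averaged 4.55 Foxp1 and 9.84 Calb2 transcripts per cell, and the 171 cells just outside, with 4, averaged 4.31 and 12.7. The 122 members with exactly 4 Necab1 transcripts averaged 3.02 transcripts of Pamr1, a secreted peptidase-domain protein, and the 143 cells just outside averaged 2.41.

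Members held more transcripts than other VGLUT2 cells, though not more than every class compared below. The Bhlhe22 Necab1 cells had the same median over all sections, 633. The rule sets minimum counts of genes, and its part in the difference was not tested. The median member held 633 transcripts, with section medians of 517.5 to 705, against section medians of 467 to 545 in other VGLUT2 cells. Summed over the 37 marker genes of glia and vessels, such transcripts made up 3.64 to 5.38% of all transcripts in members per section, against 4.79 to 6.06% in other VGLUT2 cells. Negative control probes gave 0.548 counts per member, against 0.564 per other VGLUT2 cell, which sets a bound of 0.0914 counts per probe and member. Of the 289 genes outside the rule, 47 lay at or under that bound in members. Barcodes before the section suffix recurred between sections for 8 cells, none of them a member.

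The label of thalamic neurons was checked on the panel's markers, since no cell positions were used. Of 5 listed markers of thalamic relay neurons the panel held Slc17a6, which the rule uses, and Prox1, a homeobox transcription factor. Prox1 in members was 12.4, 15.5 and 17.5 transcripts per cell (lowest, median and highest of 6 sections), against 6.97, 10.3 and 13.3 in other VGLUT2 cells. Of 8 listed markers of cortical excitatory neurons, Neurod6, Fezf2 and Cplx3 lay under the background bound in members, at 0.068 ± 0.046, 0.0482 ± 0.0329 and 0.0329 ± 0.0129 transcripts per cell (SD, n = 6). Others of that list were well above it, with 1.14 ± 0.564 transcripts of Slc17a7, 4.17 ± 0.852 of Cux2 and 16.3 ± 1.11 of Nrn1, and the whole list made up 3.26 to 4.01% of transcripts in members of the 7 sections, against 4.02 to 5.67% in other VGLUT2 cells. More than 2 transcripts of 4 cortical markers together, Lamp5, Neurod6 and Fezf2 among them, were found in 0.982% of members (16 cells), against 20.6% of other VGLUT2 cells. The comparison cells thus include cells with cortical markers, and each class comparison was also run without them.

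Members were found in every section, but one section held almost none. Their share of VGLUT2 cells was 4.72% and 10.99% in anterior replicates 1 and 2, 9.92% and 13.3% in intermediate replicates 1 and 2, and 9.52%, 0.609% and 6.48% in posterior replicates 1, 3 and 4. Posterior replicate 3 stood apart, with 8 members of 1313 VGLUT2 cells. Those 8 cells also differed in profile from members elsewhere, with 1.12 Foxp1, 0.875 Pamr1, 1 Prox1 and 17.5 Calb2 transcripts per cell, so they met the rule while holding few transcripts of the genes that accompany it in the other sections. This section also had the smallest share of VGLUT2 cells, 2.16% of its cells, against 3.02 to 6.51% in the other 6. All fits below leave it out, as it lies under the minimum of 10 members. Per-cell levels are means over cells of a section, then averaged over 6 sections.

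The share did not separate the positions. It averaged 5.54 ± 4.53% in posterior sections (SD, n = 3) and 9.72 ± 3.62% in anterior and intermediate sections together (SD, n = 4), a difference of -4.19 percentage points (two-sided exact permutation test, p = 0.29, where 0.057 is the smallest this design allows). Without posterior replicate 3 the posterior mean was 7.998% and the difference -1.73 percentage points. The 2 anterior replicates differed from each other by more than either difference.

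**Figure D1:**
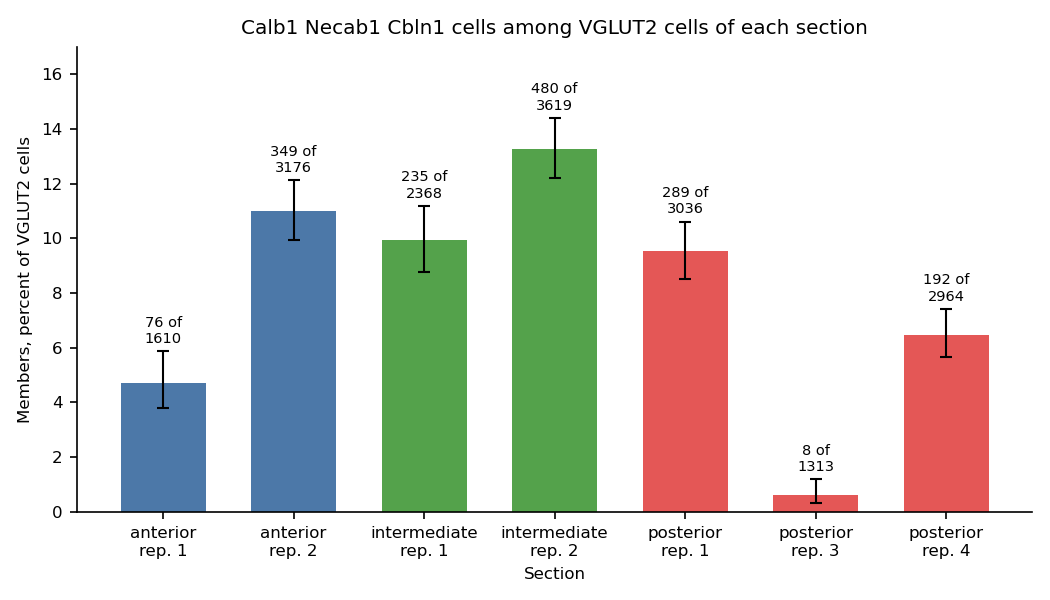
Members as a percentage of VGLUT2 cells in each of the 7 sections (bars, with 95% Wilson intervals that cover counting error only), in order from anterior to posterior; member and VGLUT2 cell numbers stand above the bars. Posterior replicate 3, at 0.609%, lies below the other sections, which run from 4.72% to 13.3%.

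The genes of the rule show how far members lie above its limits, and are given without a test. Calb1 averaged 11.7 ± 1.83 transcripts per member, against 3.62 ± 1.16 in other VGLUT2 cells (SD, n = 6 here and for all levels below). Necab1 was more uneven between sections, with 10.2 and 15.8 in anterior replicates 1 and 2, 11.5 and 21.6 in intermediate replicates 1 and 2, and 15.9 and 22.4 in posterior replicates 1 and 4. Cbln1 stayed within a narrower range in members, 11.6 to 15.2 transcripts per cell. Slc17a6 averaged 25.6 ± 2.25 in members and 18.8 ± 1.09 in other VGLUT2 cells.

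Set against other VGLUT2 cells, members differed in most of the panel, with Gpr4, Ramp3, Spp1 and Rreb1 among the genes furthest above and Lamp5, Neurod6 and Igfbp6 among those furthest below. The test was edgeR's quasi-likelihood F test on counts summed per section and class, with the section as a block, the 8 genes of the rule left out of sums, scaling and test, and Benjamini-Hochberg adjustment at 0.05. Of 287 genes tested, 61.7% were called, 86 higher (30%) and 91 lower (31.7%) in members. Log2 differences below are members minus the comparison class, per scaled library (TMM), with the SE. With library size in place of TMM scaling the median of all genes moved to -0.44 from -0.01 and the calls were 47 higher and 139 lower, so differences smaller than that shift depend on the scaling.

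Pamr1, put forward as a marker of these cells from earlier results of the same data and not part of the rule, was high in members of every fitted section. Its level was 3.25 and 4.02 in anterior replicates 1 and 2, 3.52 and 4.7 in intermediate replicates 1 and 2, and 3.69 and 5.22 in posterior replicates 1 and 4. Other VGLUT2 cells held 1.14 to 1.58 transcripts per cell, so the classes did not overlap, and the log2 difference was 1.91 ± 0.09 (edgeR's quasi-likelihood test, adjusted p = 4.4e-08). The level followed the strictness of the rule, at 4.97 transcripts per cell in the 951 cells of a stricter version (at least 6 Calb1, 6 Necab1 and 8 Cbln1), 4.18 over all members and 3.68 in the 2264 cells of a looser one (at least 3 of each). Median transcripts per cell fell in the same order, 688, 633 and 597, and the part of depth was not tested. Of the 5 listed markers of the anteromedial nucleus, Calb1 and Necab1 are in the rule. All of the other 3, Pamr1, Ramp3 and Tox, were higher in members, with a median difference of 1.91 against -0.01 over all genes tested. The lists were chosen with earlier results of these data known. All 5 made up 4.58 to 7.67% of transcripts in members per section, overlapping 4.08 to 6.45% in Bhlhe22 Necab1 cells, a class described below. Listed midline markers (Calb2, Nts and Bhlhe22 of the rule) made up 0.228 to 2.48% in members of the fitted sections, against 0.987 to 2.75% in other VGLUT2 cells. Among these sections members were above other VGLUT2 cells only in anterior replicate 1 (2.48 against 1.215%). Posterior replicate 3, left out of the fits, was at 3.11 against 2.23%. Tox, an HMG-box nuclear protein, had 4.04 ± 0.446 transcripts per member, against 1.99 ± 0.398.

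Some receptors and a receptor partner were among the higher genes, although both lists that hold receptors had more lower than higher genes. Ramp3, a partner protein of calcitonin-family receptors, had 2.46, 4.8 and 6.07 transcripts per cell in members (lowest, median and highest section), against 0.441, 1.17 and 2.64 in other VGLUT2 cells. Its section ranges overlapped, since levels in both classes were lowest in anterior replicate 1, but members were higher within all 6 sections (2.20 ± 0.17, adjusted p = 1.3e-06 by edgeR's quasi-likelihood test). The proton-sensing receptor Gpr4 showed the largest difference among higher genes, with 1.74 ± 0.678 transcripts per member and 0.38 ± 0.128 per other VGLUT2 cell (2.38 ± 0.12). Oprm1, the mu-opioid receptor, had 5.83, 6.34 and 8.62 in members, against 1.26, 2.16 and 3.13, with no overlap (1.90 ± 0.13). The non-visual opsin Opn3 was at 2.5 ± 0.714 against 0.722 ± 0.255 (2.02 ± 0.13). Over all genes tested, 30% were higher and 31.7% lower. Among all 14 tested genes of the list of neuropeptides, their receptors and Ramp3, 3 were higher, Oprm1, Ramp3 and Ntsr2, and 6 were lower. Ntsr2 was no longer called under library size scaling. Ntsr2 is also listed as an astrocyte marker. Of 7 astrocyte genes 4 were higher (with Acsbg1, Slc39a12 and Rfx4) and 1 was lower, against 0 higher and 2 lower with library size scaling. The astrocyte list made up 2.09 to 2.90% of transcripts in members per section, against 2.67 to 3.60%, and its part in these calls was not tested.

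Transcription factors were divided. Of 24 tested, 8 were higher and 12 lower in members, against 30% and 31.7% over all genes. Their median difference was -0.43 (6 higher and 15 lower with library size scaling). Foxp1, a forkhead repressor, was the most abundant of the higher ones after Prox1, at 7.04, 8.35 and 10.2 transcripts per cell in members, against 2.54, 2.81 and 3.38 in other VGLUT2 cells, with every member value above every comparison value (1.75 ± 0.11, adjusted p = 3.6e-07 by edgeR's quasi-likelihood test). The zinc-finger factor Rreb1, outside that list, was at 7.26 ± 0.894 against 2.01 ± 0.412 (2.07 ± 0.09). Prox1 was modestly higher (0.84 ± 0.11), and this call was lost with the looser rule (log2 0.30, adjusted p = 0.54) and with posterior replicate 3 included (0.46, adjusted p = 0.30). On the other side Meis2, a homeobox factor, was at 0.353 ± 0.0921 transcripts per member, against 2.27 ± 0.177 (-2.51 ± 0.15). The cortical factors Neurod6 and Fezf2 were -4.46 and -2.93 on the log2 scale. Without comparison cells carrying cortical markers, Neurod6 turned to 0.62 and Fezf2 was -0.26. That choice of cells uses these same genes, so the change decides nothing about their deficit in members.

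Secreted and surface proteins of wiring and matrix followed. The osteopontin gene Spp1 was at 0.731 ± 0.32 transcripts per member and 0.184 ± 0.0713 per other VGLUT2 cell (2.17 ± 0.25), and it was 1 of 5 higher genes among the 20 of the growth factor and matrix list, the others being Pamr1, Nell1, Igfbp5 and Igf1, while 9 were lower (4 higher and 12 lower with library size scaling). The guidance ligand Sema3e had 1.57, 2.29 and 2.53 transcripts in members, against 0.593, 0.769 and 0.982, with no overlap (1.69 ± 0.15). Beside the counts of both lists here, 30% of all genes tested were higher and 31.7% lower. In the axon guidance and adhesion list 4 of 22 genes were higher and 6 lower, with a median of 0.02, and with library size scaling 2 were higher and 10 lower. The lower ones included Sema3a, the receptor Nrp2 and Slit2, a ligand of Robo receptors, which had 0.253 ± 0.144 transcripts per member, against 1.3 ± 0.277 (-2.33 ± 0.38). Dkk3, a Dickkopf family protein, was at 0.61 ± 0.136 against 3.33 ± 0.913 (-2.21 ± 0.16).

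Among genes of transmitter release, 5 of 10 were higher and 3 lower, against 30% and 31.7% over all genes. That balance turned to 3 and 5 with library size scaling. Nxph3, a neurexin ligand, had 1.81 ± 0.482 transcripts per member, against 0.677 ± 0.0513 (1.60 ± 0.15), and the synaptotagmin Syt17 had 1.74 ± 0.268 against 0.787 ± 0.163 (1.37 ± 0.14). Syt2, another synaptotagmin, was lower (-1.55 ± 0.20). Of 10 ion channel genes, 2 were higher and 5 lower, against 30% and 31.7% over all genes (1 and 7 with library size scaling, 3 and 4 without comparison cells carrying cortical markers). The calcium-permeable channel Trpc4 was at 0.115 ± 0.0639 transcripts per member, against 0.385 ± 0.0501 (-1.69 ± 0.27). Of 8 receptors for glutamate, serotonin and acetylcholine and their auxiliaries, 2 were higher and 3 lower (1 and 5 with library size scaling), the serotonin receptor Htr2c among the lower at 0.677 ± 0.092 against 1.61 ± 0.268 (-1.04 ± 0.13). Of 19 cyclic nucleotide, phosphoinositide and G-protein signalling genes, 8 were higher and 5 lower, a balance that turned to 4 and 9 with library size scaling.

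The EF-hand family, of which Calb1, Necab1 and Pvalb are in the rule, gave 4 testable genes that did not move together. Necab2, a neuronal relative of Necab1, was higher, with 4.01 ± 1.04 transcripts per member and 1.75 ± 0.421 per other VGLUT2 cell (1.40 ± 0.10). Cabp7, a calcium-binding protein related to calmodulin, was lower, at 0.201 ± 0.0597 against 1.06 ± 0.419 (-2.18 ± 0.15). Hpcal1, a visinin-like protein, was at 0.937 ± 0.147 against 1.2 ± 0.271 and not called (-0.14 ± 0.16, adjusted p = 0.46 by edgeR's quasi-likelihood test). Calb2 (calretinin) was at 6 ± 4.87 against 7.49 ± 3.79 and was not called (-0.45 ± 0.35, adjusted p = 0.29), but without anterior replicate 1 it was -0.91 with an adjusted p of 0.0013. Of the synapse organisers related to Cbln1, Cbln4 and C1ql2 were measured, and both were lower. Cbln4 was at 0.303 ± 0.354 against 0.996 ± 0.302 (-2.09 ± 0.50, adjusted p = 0.0036), a call lost without the section block (adjusted p = 0.068). C1ql2 lay under the background bound in members, so its -3.62 has no exact size.

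All 4 markers listed for the anterodorsal nucleus, C1ql2, Slit2, Slc17a7 and Syt2, were lower in members, with a median of -2.26. Slc17a7 (VGLUT1, the other vesicular glutamate transporter) was 0.303, 1.11 and 1.77 transcripts per member and 4.02, 5.88 and 7.55 per other VGLUT2 cell, without overlap (-2.20 ± 0.22, adjusted p = 7.4e-06 by edgeR's quasi-likelihood test). Arc, an immediate early gene, was at 0.282 ± 0.0463 against 2.73 ± 0.475 (-3.02 ± 0.13), while 4 other activity-regulated genes of the 6 tested, Bhlhe40, Nrn1, Gadd45a and Fos, were higher, though none of these 4 was called with library size scaling. Among the largest deficits, Lamp5 (-4.98), Neurod6, Igfbp6 (-3.89), Sema3a (-3.48), Ndst4 (-3.19) and Pdzrn3 (-3.05) were of genes under the background bound in members, so their sizes are not exact. Nwd2 (-3.43 ± 0.25) lay just above that bound, at 0.0957 ± 0.032 transcripts per member, against 1.11 ± 0.188.

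**Figure D2:**
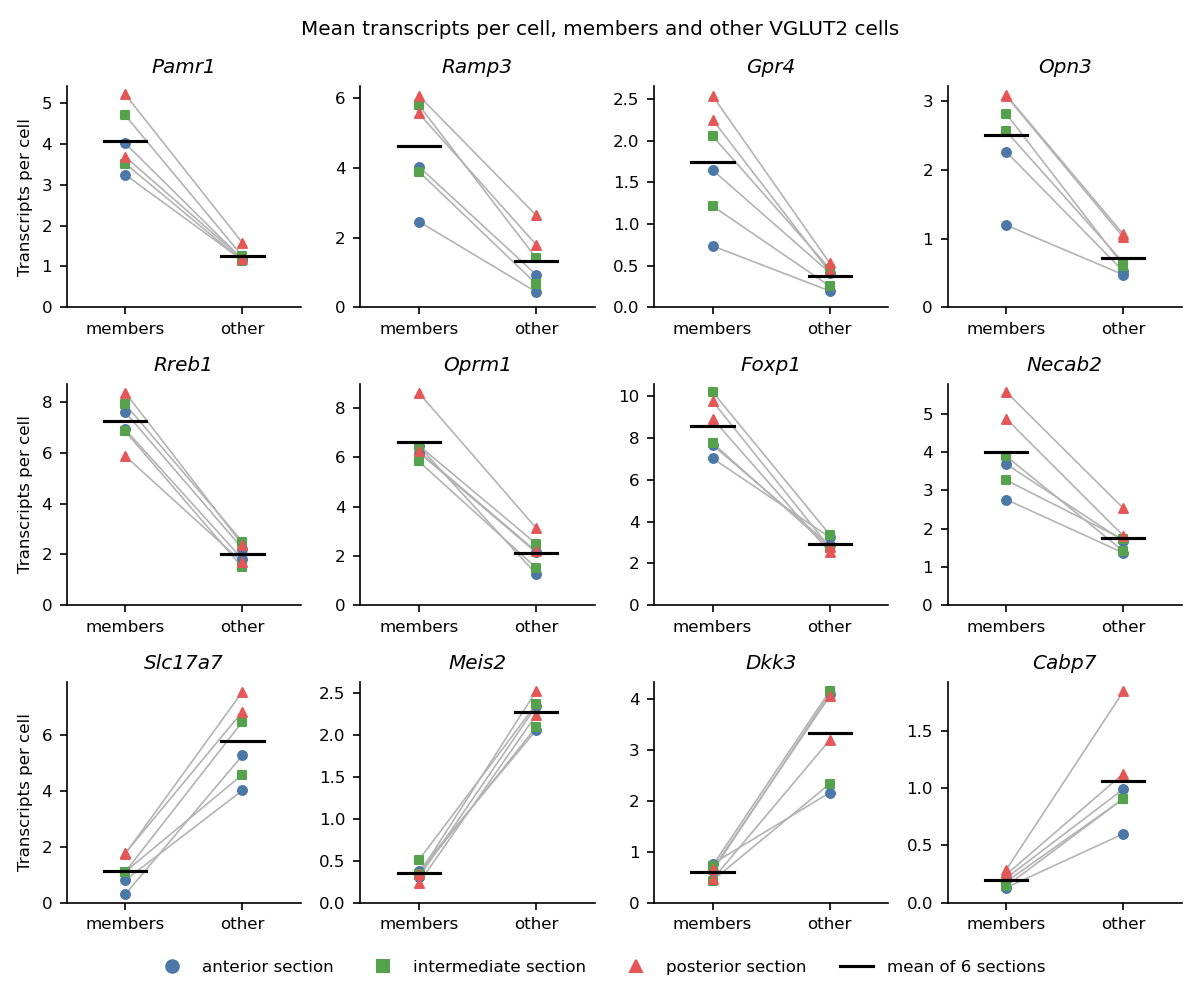
Mean transcripts per cell (y axes, from 0) in members and other VGLUT2 cells for 12 genes outside the rule; each point is a section, grey lines join the classes of a section, and black bars mark the mean of 6 sections. The lines fall from members to other cells in every section for the first 8 genes and climb in every section for Slc17a7, Meis2, Dkk3 and Cabp7.

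Members were then set against 3 other VGLUT2 classes, each also defined by raw counts. The Car4 cells (2705) held at least 4 transcripts of Car4, a carbonic anhydrase, with at most 1 of Calb1 and of Necab1. Calling was 62.6% of 281 genes, 90 higher (32%) and 86 lower (30.6%) in members (67 and 100 with library size scaling). Oprm1 was 5.83, 6.34 and 8.62 transcripts per cell in members and 0.256, 0.352 and 0.862 in Car4 cells (4.07 ± 0.18, adjusted p = 5.6e-08 by edgeR's quasi-likelihood test). Ramp3 was at 4.64 ± 1.41 against 0.279 ± 0.273 (4.40 ± 0.31), and Zcchc12, a zinc-finger protein, at 7.42 ± 0.968 against 0.817 ± 0.406 (3.33 ± 0.24). Pamr1, Tox and Foxp1 differed by 2.39 ± 0.17, 2.87 ± 0.12 and 2.21 ± 0.12. Tacr1, the substance P receptor, and Spp1 had the largest differences (4.69 and 4.43), whose sizes are not exact because both lay under the background bound in Car4 cells.

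Calb2 averaged higher in members than in Car4 cells, with 6 ± 4.87 transcripts per member and 0.545 ± 0.259 per Car4 cell (3.11 ± 0.60, adjusted p = 0.0014 by edgeR's quasi-likelihood test). It did not mark most members, since 52.1% of them held no Calb2 transcript, with 65.7 and 65.1% in posterior replicates 1 and 4. Necab2 was also higher (1.73 ± 0.15). Lower in members were Gsg1l, an auxiliary subunit of AMPA receptors, at 0.569 ± 0.108 against 2.71 ± 0.28 (-2.25 ± 0.11), and Nrp2, a semaphorin receptor, at 0.832 ± 0.222 against 3.67 ± 0.466 (-2.18 ± 0.11). Vascular genes moved with this comparison. Of 10 endothelial and mural markers, 7 were lower in members, against 30.6% of all genes tested. The list made up 0.325 to 0.751% of transcripts in members of the 6 sections, against 0.750 to 1.05% in Car4 cells. The part of vessels in the calls was not tested.

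The Bhlhe22 Necab1 cells (684) share the Necab1 minimum with members and held at least 4 transcripts of Bhlhe22, a transcription factor of the basic helix-loop-helix family. No limit was set on their Calb1, Cbln1 or Pvalb, so Bhlhe22 is not their only difference from members. The list of cerebellins and C1q-like organisers, which holds Cbln1, made up 0.246 to 0.510% of their transcripts per section, against 1.65 to 2.35% in members. Of 279 genes, 62.7% were called, 89 higher (31.9%) and 86 lower (30.8%) in members (64 and 102 with library size scaling). Higher in members were Rab37, a small GTPase, at 0.368, 2.77 and 3.92 transcripts per cell, against 0.114, 0.199 and 0.596 in Bhlhe22 Necab1 cells (3.33 ± 0.26, adjusted p = 4.7e-06 by edgeR's quasi-likelihood test), Opn3 (3.06 ± 0.25), the ephrin receptor Epha8 (2.77 ± 0.30), the connexin gene Gjc1 (2.56 ± 0.22) and Shisa6, an AMPA receptor auxiliary (2.48 ± 0.25). Pamr1 was nearly shared, at 4.07 ± 0.754 against 3.32 ± 1.07, and its call (0.59 ± 0.21, adjusted p = 0.031) was lost without anterior replicate 2 (0.064), without posterior replicate 4 (0.052), with library size scaling (0.062) and with the looser rule (0.62). Ramp3 was higher (1.69 ± 0.20), a call lost with the looser rule (adjusted p = 0.081). Foxp1 was higher as well (1.29 ± 0.15).

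Calb2 was lower in members than in Bhlhe22 Necab1 cells, at 6 ± 4.87 against 20.8 ± 7.85 transcripts per cell (-1.94 ± 0.37, adjusted p = 0.001 by edgeR's quasi-likelihood test). Htr2c and Cbln4 were lower too, at 0.677 ± 0.092 against 4.1 ± 1.06 (-2.33 ± 0.20) and 0.303 ± 0.354 against 1.48 ± 0.516 (-2.69 ± 0.54). This class held the most cortical-marker cells, 33.8%. Without them 120 of 266 genes were called, 93 of the 175 calls remained with their direction, and the Necab2 call (0.98) was lost (0.21, adjusted p = 0.30), as was that of Cabp7 (-1.02), which turned to 0.01. The largest deficits, Neurod6, Lamp5, Igfbp6, Sema3a and Pdzrn3 (-5.76 to -4.31), are of genes under the background bound in members. Lamp5 was no longer called without the cortical-marker cells (-0.66, adjusted p = 0.32 by edgeR), but that choice of cells uses Lamp5 itself, so the lost call decides nothing.

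The C1ql2 cells (1161) held at least 4 transcripts of C1ql2, a synapse organiser and marker of the anterodorsal nucleus. Of 279 genes, 57.3% were called, 82 higher (29.4%) and 78 lower (28%) in members (67 and 87 with library size scaling). Lower in members were Slc17a7, at 0.303, 1.11 and 1.77 transcripts per cell, against 6.61, 14.6 and 21.6 in C1ql2 cells (-3.56 ± 0.19, adjusted p = 8.7e-07 by edgeR's quasi-likelihood test), and Slit2, at 0.253 ± 0.144 against 4.44 ± 0.825 (-4.22 ± 0.43). Neither overlapped between the classes. Serpinf1, a secreted serpin, Rspo3, a Wnt signal enhancer, and Cabp7 were lower by a similar degree (-4.03, -3.65 and -3.50). Pamr1 showed its widest contrast here, 4.07 ± 0.754 against 0.197 ± 0.102 (4.60 ± 0.27), and Foxp1 was at 8.57 ± 1.27 against 1.32 ± 0.152 (2.78 ± 0.10). Ramp3, Spp1, Gpr4 and Tacr1 differed by 5.88, 4.52, 4.08 and 4.01, sizes that are not exact since these genes lay under the background bound in C1ql2 cells. Calb2 was slightly lower (-0.80 ± 0.29, adjusted p = 0.038), a call lost under 7 of the 17 alternatives, among them leaving out intermediate replicate 1, posterior replicate 1 or posterior replicate 4 (adjusted p of 0.12, 0.11 and 0.091).

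Some genes were called the same way against all 3 classes. Of 271 genes tested in all 4 comparisons, 33 were higher in members each time, among them Pamr1, Ramp3, Gpr4, Oprm1, Opn3, Foxp1, Rreb1, Necab2, Nxph3, Sema3e, Tacr1 and Zcchc12, and 21 were lower each time, among them Slc17a7, Arc, Dkk3, Cabp7, Gsg1l and Lamp5. The comparisons share the member sums, so these counts are not independent of each other. They also depend on cells with cortical markers: without these, 16 of the 33 and 5 of the 21 stayed called that way against all 3 classes, and against Bhlhe22 Necab1 cells alone 20 and 6 did. Pamr1, Ramp3, Gpr4, Opn3, Foxp1, Rreb1, Nxph3, Sema3e and Tacr1 were among the 16. Tacr1 was not spread evenly over members, as its levels by Calb2 count below show. Against Bhlhe22 Necab1 cells without cortical markers, Oprm1 was -0.13 (adjusted p = 0.50 by edgeR's quasi-likelihood test), Zcchc12 -0.10 (0.54) and Necab2 0.21 (0.30), so none was called. None of the 6 lower genes named here was called lower in that comparison either. Slc17a7 was called higher (1.09, adjusted p = 0.0053 by edgeR), Arc, Dkk3 and Lamp5 were -0.49, -0.23 and -0.66, and Gsg1l and Cabp7 0.09 and 0.01. For Lamp5 this decides nothing, since it is among the markers by which those cells were left out. Microglial genes were also among the 33 (Cd53, Laptm5 and Siglech), though not among the 16, and the microglia list made up 0.347 to 0.512% of transcripts in members of the 6 sections, against 0.275 to 0.404% in Car4 cells, 0.197 to 0.457% in Bhlhe22 Necab1 cells and 0.189 to 0.392% in C1ql2 cells. Their part in those calls was not tested. Calb2 and Rab37 differed in direction between classes. Calb2 was higher than in Car4 cells and lower than in Bhlhe22 Necab1 and C1ql2 cells, and Rab37 was 3.33 against Bhlhe22 Necab1 cells and -0.65 against Car4 cells.

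**Figure D3:**
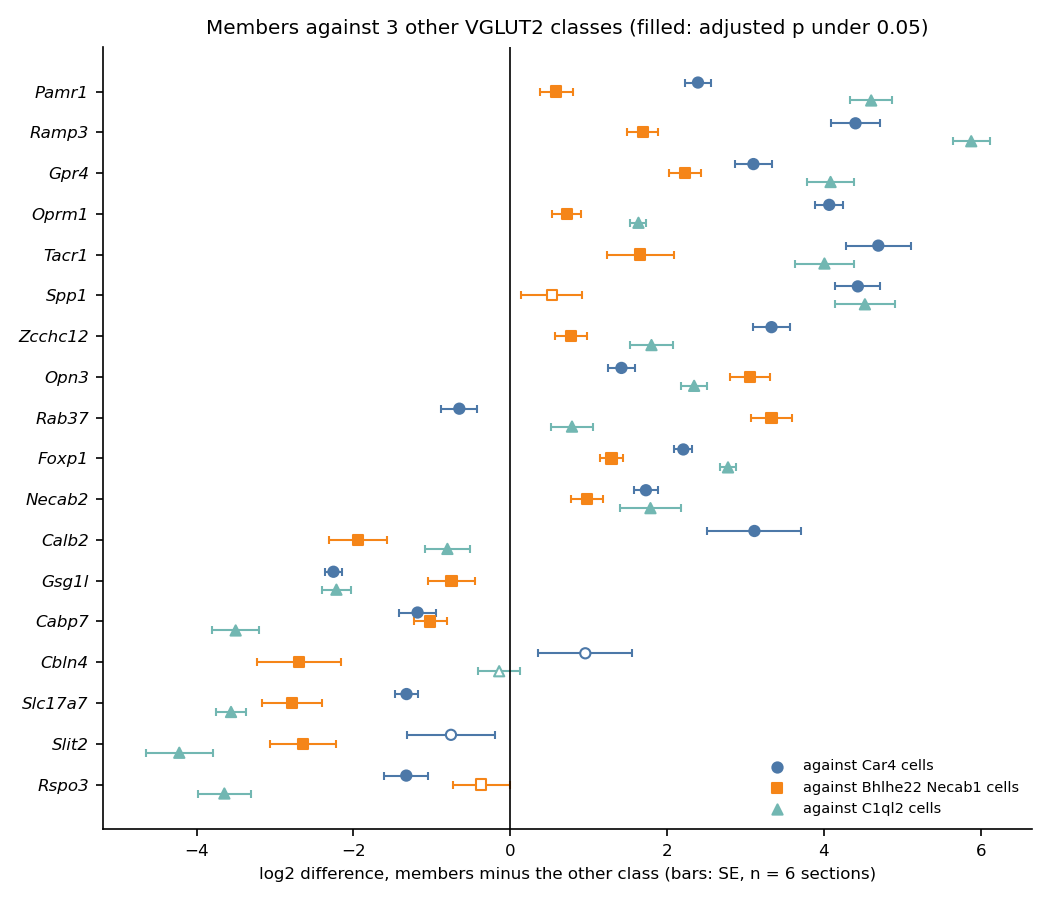
Log2 difference of members minus each of 3 other VGLUT2 classes for 18 genes (x axis, with SE from 6 sections); filled symbols passed an adjusted p of 0.05. Pamr1, Ramp3, Gpr4, Oprm1, Foxp1 and Necab2 lie to the right of 0 against all 3 classes (against Bhlhe22 Necab1 cells without cortical markers, not drawn, Oprm1 was -0.13 and Necab2 0.21, neither called), while Calb2 lies right against Car4 cells and left against the others.

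Along the anterior to posterior axis, few genes were called in members. Between posterior (replicates 1 and 4) and anterior sections (replicates 1 and 2), 16 of 274 genes (5.84%) were called by edgeR's quasi-likelihood test, 6 higher (2.19%) and 10 lower (3.65%) in posterior members. At an unadjusted p under 0.05 there were 72. On simulated counts this comparison recovered 40% of genes changed 1.5-fold, so few calls do not show that few genes changed. Calb2 fell furthest. It had 13.9 and 8.23 in anterior replicates 1 and 2, 2.23 and 7.81 in intermediate replicates 1 and 2, and 1.45 and 2.37 in posterior replicates 1 and 4, so that the anterior values lay above the posterior ones and the intermediate sections were far apart (-2.79 ± 0.54, adjusted p = 0.026). Vat1l, a relative of a synaptic vesicle membrane protein, had 3.2 and 2.64 in anterior replicates 1 and 2, 1.74 and 1.95 in intermediate replicates 1 and 2, and 1.16 and 0.677 in posterior replicates 1 and 4 (-1.89 ± 0.28). Pcsk5, a proprotein convertase, and Rspo3 were lower as well (-2.16 and -1.83), at section means of 0.177 to 1.09 and 0.151 to 0.737 transcripts per member.

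Higher in posterior members was Rab37, with 0.368 and 1.44 in anterior replicates 1 and 2, 2.99 and 2.55 in intermediate replicates 1 and 2, and 3.92 and 3.58 in posterior replicates 1 and 4 (1.73 ± 0.42, adjusted p = 0.049 by edgeR's quasi-likelihood test). Slc17a7 (1.34 ± 0.33), the RNA-editing family member Adarb2 (1.24 ± 0.25) and Car4 (1.13 ± 0.21) were higher too. The other 2 higher genes, Adgrl4 and Cldn5, mark endothelium, and endothelial and mural markers made up 0.751 and 0.664% of transcripts in posterior members, against 0.381 and 0.365% in anterior members. Pamr1 was not called, at 0.05 ± 0.22 (adjusted p = 0.91), as measured in 2 sections a side.

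These position calls are fragile. Leaving out 1 section gave 2 to 18 calls, with 2 without anterior replicate 1 and 3 without either intermediate section. The looser rule gave 0 calls, the stricter rule 6, and DESeq2 36. None of the 10 genes named as called was called under every alternative. No gene was called between intermediate and anterior or between posterior and intermediate sections by edgeR's quasi-likelihood test (21 and 41 at an unadjusted p under 0.05). Whether the position differences are particular to members was tested as an interaction with other VGLUT2 cells, and edgeR called 0 of 287 genes (23 at an unadjusted p under 0.05, 3 by DESeq2). On simulated data of this design the interaction recovered 65% of genes changed 2-fold and 35% of those changed 1.5-fold.

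Calb2 was also the gene that varied most between members of a section. The variance of its counts was 21.0 times that of Poisson counting at the same cell totals, against a median of 1.96 over the 153 genes with at least 0.5 transcripts per member. Of all members 52.1% (848) held no Calb2 transcript, while 293 (17.99%) held 10 or more and the highest held 106. Few lay near the limit of 10, which was set after the values were seen, with 95 members (5.83%) at 7 to 12. The share with 10 or more was 60.5% and 26.7% in anterior replicates 1 and 2, 6.81% and 23.1% in intermediate replicates 1 and 2, and 2.77% and 7.29% in posterior replicates 1 and 4. In posterior replicate 3 it was 5 of the 8 members. Most of the other genes with a high ratio, such as Cldn5 (11.1), Ly6a (10.0), Pdgfra (8.63), Opalin (8.02) and Gjc3 (7.59), are of vessels or oligodendrocyte lineage cells. Median transcripts per cell were close in the 2 Calb2 bands, 632 with 10 or more and 652 with none.

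**Figure D4:**
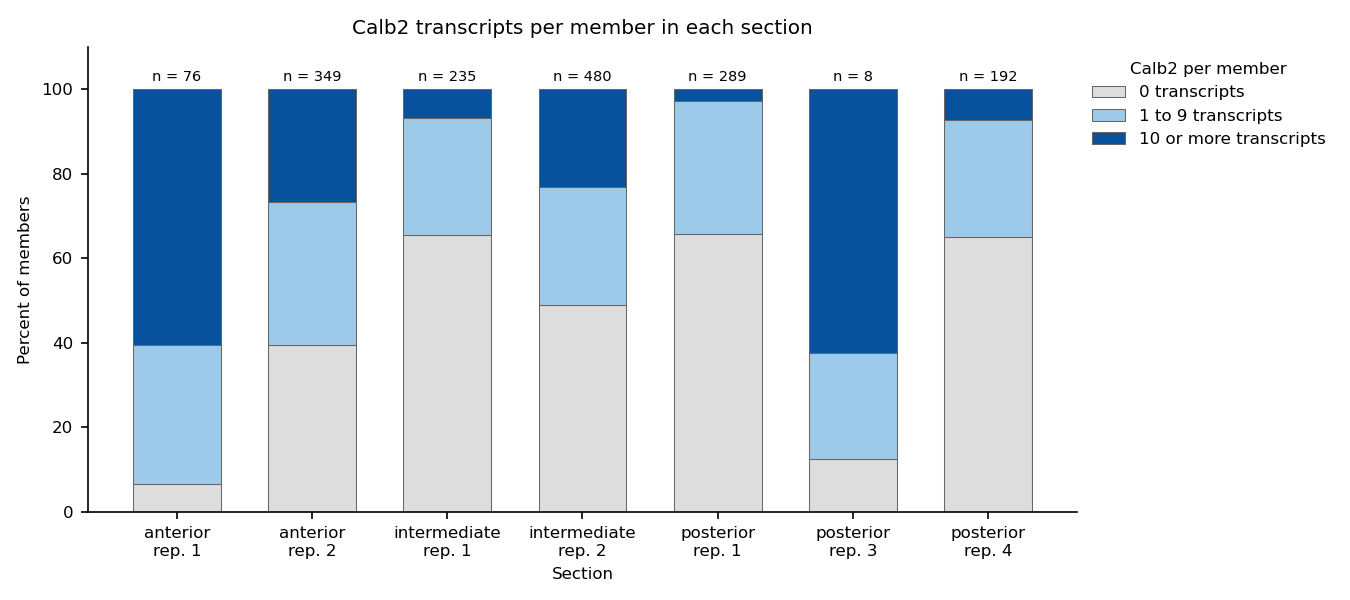
Percentage of members (y axis) with 0, 1 to 9 and 10 or more Calb2 transcripts in each of the 7 sections, with the number of members above each bar. Members with 10 or more make up 60.5% in anterior replicate 1 and 2.77% in posterior replicate 1; posterior replicate 3 has only 8 members.

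Members with many and with no Calb2 transcripts differed in other genes within the same sections. No test is given, since the bands were drawn from these cells. Outside Calb2 and the rule, 46 of 288 genes were higher in members with 10 or more Calb2 transcripts in all 6 sections, and 30 were lower in all 6, per 1000 transcripts. Some of these section values rest on few cells. Only 5 members of anterior replicate 1 held no Calb2 transcript. Those with 10 or more numbered 8 and 14 in posterior replicates 1 and 4 and 16 in intermediate replicate 1. Cbln4 averaged 1.38 ± 1.31 transcripts per cell with 10 or more Calb2 transcripts and 0.024 ± 0.0212 with none. Tacr1 was at 0.78 ± 0.437 against 0.0572 ± 0.0363 and Trpc4 at 0.552 ± 0.371 against 0.017 ± 0.0199, in the same order of bands. In members with no Calb2 transcript, Cbln4, Tacr1 and Trpc4 lay under the background bound of members (0.0914). The sizes of these contrasts are therefore not exact. Vat1l was at 5.12 ± 2.56 against 1.01 ± 0.34, Plcxd3, a phospholipase C-like protein, at 4.49 ± 1.45 against 0.937 ± 0.202, and Htr2c at 1.5 ± 0.715 against 0.471 ± 0.259. All 6 genes were higher in the Calb2-rich members of every section.

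In the opposite direction, Rab37 was at 0.661 ± 0.428 against 3.38 ± 1.21 transcripts per cell (members with 10 or more Calb2 transcripts against members with none), Car4 at 0.28 ± 0.276 against 1.38 ± 0.557 and Shisa6 at 0.306 ± 0.129 against 1.23 ± 0.289. Sema3e (0.968 ± 0.289 against 2.48 ± 0.493), Opn3 (1.37 ± 0.675 against 3.03 ± 0.725), Epha8 (0.933 ± 0.485 against 2.01 ± 0.284) and Prox1 (9.5 ± 3.9 against 17.1 ± 1.83) were likewise lower in the Calb2-rich members of all 6 sections, per 1000 transcripts. Pamr1, at 3.36 ± 0.985 against 4.18 ± 0.871, and Foxp1, at 6.56 ± 2.14 against 9.66 ± 0.808, were lower in 5 of 6. All 9 genes other than Calb2 that were lower in posterior members averaged higher in Calb2-rich members, and all 6 that were higher averaged lower. Among members with fewer than 10 Calb2 transcripts, no gene was called between posterior and anterior sections, where Vat1l was -1.53 (adjusted p = 0.067 by edgeR's quasi-likelihood test) and Rab37 1.28 (0.077), against -1.89 and 1.73 over all members. Car4 (1.17), Cldn5 (1.10), Slc17a7 (1.28), Adarb2 (1.14) and Adgrl4 (1.12) kept about the same difference as over all members (1.13, 1.05, 1.34, 1.24 and 1.27), with fewer cells.

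**Figure D5:**
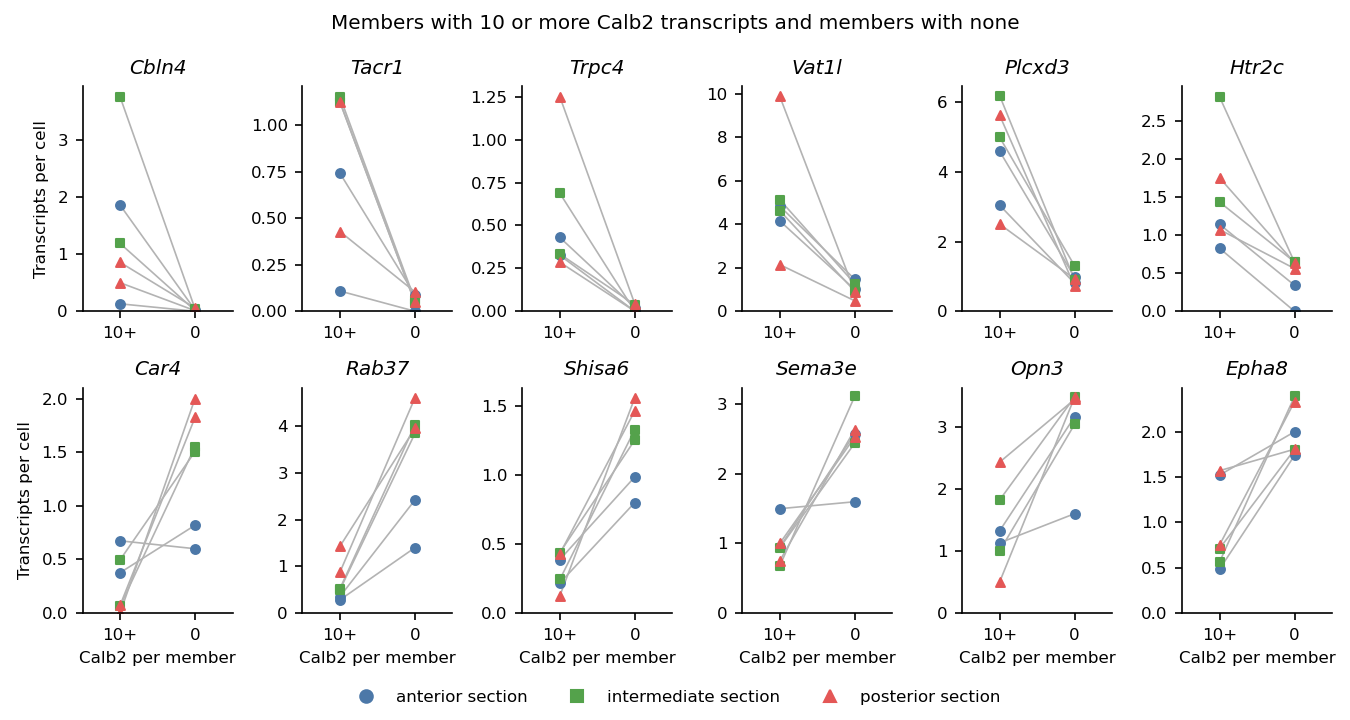
Mean transcripts per cell (y axes, from 0) in members with 10 or more Calb2 transcripts and in members with none, for 12 genes; each point is a section and grey lines join the bands of a section (6 sections). The top 6 genes are higher in Calb2-rich members and the bottom 6 in members without Calb2 in nearly every section. The bands were set after seeing the data. Some points rest on few cells, as few as 5 for members without Calb2 (anterior replicate 1) and 8 for Calb2-rich members (posterior replicate 1).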

How the data were processed

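Transcripts were counted by Xenium in 7 fresh-frozen mouse brain hemisections. The counts deposited by the authors are whole numbers of transcripts for each gene in each outlined cell, and their sum equals the deposited total of 100% of cells. The submitters' processing notes name Seurat, without a version. How cells were outlined or filtered was not stated in the labels, and an outline may take in transcripts from adjacent cells. No doublet caller was run and no cell positions were used. Sections came from the deposited cell table, joined by barcode.

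The members, gene lists and comparison classes were chosen with earlier results of these data known. Raw counts of a class were summed per section, without the 8 genes of the rule (and without Car4 or C1ql2 where it defined the other class). Sums of at least 10 cells (6 sections) were tested with edgeR 4.0.16 in R 4.3.3: filterByExpr, TMM, quasi-likelihood F test with the section as a block, Benjamini-Hochberg adjustment at 0.05. Position was fitted without a block. The SE is the absolute log2 difference divided by the square root of F. The background bound is the control-probe count per cell divided by 6, the most different control probes seen in 1 cell, so genes at or under it give no exact fold. Intervals and this bound cover counting error only. Totals were 17438577 to 23432215 transcripts per section.

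On simulated counts the comparison with other VGLUT2 cells recovered 100% of genes changed 1.5-fold or more, and that of position 40% at 1.5-fold and 89.5% at 2-fold. Named genes are, among calls that moved one way in all 6 sections, the 10 largest in each direction against other VGLUT2 cells, the 5 largest against each other class and for position, plus Pamr1, the EF-hand and cerebellin families and up to 3 called genes of each list. Other names are examples chosen after their values were seen, and some genes that the rule takes are not reported here. Alternatives were DESeq2 1.42.0, library size scaling, no low-count filter, stricter and looser rules, leaving out marker genes of glia and vessels, cells matched on depth, other blocks, 1 slide and leaving out each section. Comparison cells without cortical markers, posterior replicate 3 included, and members with fewer than 10 Calb2 transcripts were added after seeing the data. Python 3.11.15, numpy 2.4.6, pandas 2.3.3, scipy 1.17.1 and matplotlib 3.10.9 were used.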

Additional observations from a re-analysis of the deposited data

How the results depend on the processing

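The counts of genes called against the 4 comparison classes stayed within 1.5 times their value under every alternative run: 139 to 193 against other VGLUT2 cells, 144 to 174 against Car4 cells, 120 to 175 against Bhlhe22 Necab1 cells and 121 to 167 against C1ql2 cells. Leaving out 1 section each gave 164 to 187, 158 to 173, 142 to 168 and 145 to 161. A set of the named genes, not all of them, was followed through every alternative. Of those called, 34 of 43 (other VGLUT2 cells), 21 of 29 (Car4 cells), 18 of 33 (Bhlhe22 Necab1 cells) and 22 of 27 (C1ql2 cells) were called in the same direction under every alternative. Outside that set, Bhlhe40, Gadd45a, Fos, Acsbg1, Slc39a12 and Rfx4 were not called higher than in other VGLUT2 cells with library size scaling. Without comparison cells carrying cortical markers, Neurod6 turned to 0.62 against other VGLUT2 cells, where the choice of cells uses this gene. Against Bhlhe22 Necab1 cells without cortical markers Slc17a7 turned to 1.09 and was called higher (adjusted p = 0.0053 by edgeR), and Oprm1 turned to -0.13, Zcchc12 to -0.104, Gsg1l to 0.0861 and Cabp7 to 0.0133, none of them called. Library size scaling turned Ntsr2 to -0.0367 and Nrn1 to -0.00529 against other VGLUT2 cells, where the median of all genes shifted as well. Position was least stable: 16 calls became 36 with DESeq2, 6 with the stricter rule, 0 with the looser rule, 7 without marker genes of glia and vessels, 2 to 18 when 1 section was left out, and 0 among members with fewer than 10 Calb2 transcripts. Under the looser rule Vat1l turned to 0.16. The interaction gave 3 calls with DESeq2 and 0 to 1 when 1 section was left out (1 without anterior replicate 2). The cause of the other changes was not tested. The labels do not say what a replicate number marks. With the replicate number as a block 22 genes were called for position, 13 of the 16 among them, and 180 for members against other VGLUT2 cells, 170 for members against Car4 cells, 175 for members against Bhlhe22 Necab1 cells and 162 for members against C1ql2 cells, with the Calb2 call against C1ql2 cells lost (-0.46, adjusted p = 0.47 by edgeR), as were those of Rab37 against Car4 cells (-0.54, 0.28) and C1ql2 cells (0.87, 0.12) and of Cldn5 by position (0.98, 0.074), and no other call of a named gene changed. Members of replicate 1 deviated together across positions (correlations of 0.28 to 0.40 over 274 genes), but replicate 2 has 2 fitted sections and replicate 4 has 1. The difference in share by position ran from -6.18 to -1.73 percentage points when 1 section was left out (exact permutation p of 0.10 to 0.67).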

Other observations

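Members also differed from other VGLUT2 cells in abundant genes whose values were not given above, chosen here after their values were seen. Rims3, an active-zone protein of the presynaptic release site, had the highest mean of all panel genes in members, at 33.1 ± 5.07 transcripts per cell, against 17.7 ± 2.69 in other VGLUT2 cells (SD, n = 6). The ranges did not overlap, and the log2 difference was 1.11 ± 0.10 (edgeR's quasi-likelihood test, adjusted p = 5.2e-06). It was called under every alternative, from 0.69 with library size scaling to 1.22 with the stricter rule. Nell1, a secreted protein with EGF-like repeats, had 10.4 ± 2.20 transcripts per member, against 5.72 ± 0.959 (1.06 ± 0.12). Igfbp5, an insulin-like growth factor binding protein, had 11.1 ± 0.563 against 6.76 ± 1.23 (0.94 ± 0.11), and its call was lost with the looser rule (0.55, adjusted p = 0.068).

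The list of cortical excitatory markers did not move as one. Neurod6, Fezf2, Slc17a7 and Bcl11b were lower in members. Cux2 was higher, at 4.17 ± 0.852 transcripts per member against 2.76 ± 0.288 (0.79 ± 0.12), in 5 of 6 sections per cell. Nrn1 was at 16.3 ± 1.11 against 14.2 ± 2.17 and was called higher (0.42 ± 0.09), but not with library size scaling or the looser rule (0.11, adjusted p = 0.60).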
